A study of Mus musculus with 2 samples.

Results

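Bc1, the brain cytoplasmic RNA of rodents, is 1 of the 32285 genes in the deposited count matrices of a single-cell study of mouse retina. It was chosen because earlier results of these data showed its level in rods to differ between the study's light conditions, so the light values of rods and rod bipolar cells below are a description and carry no test. Its row was found by symbol and identifier (ENSMUSG00000115783), and its level was followed over cell classes, within rods and between the libraries.

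BC1 is a short RNA made by RNA polymerase III, unlike messenger RNAs and most long non-coding RNAs. It arose from a copied alanine tRNA and is the source of many ID repeats in rodent genomes. In neurons it is carried into dendrites, where it binds poly(A)-binding protein and eIF4A and represses the start of translation.

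Mice were kept from postnatal day 14 for 2 weeks under short-wavelength light or under full-spectrum white light, and whole retina was then dissociated for droplet sequencing. The study asked how short-wavelength light bears on retinal cell development. With 1 library per condition, differences are between these libraries only and no test between conditions was possible. Strain, sex and the number of animals are not given in the sources used here. There were 16106 barcodes under short-wavelength and 5707 under white light, carrying 51681469 and 20952589 unique molecular identifiers (UMIs) at medians of 2434 and 2784 per barcode. After filtering, 14023 and 5436 cells were kept. Of all barcodes 26 occurred in both libraries, 23 of them among kept cells in both, and the rod light ratio was 1.91 with or without them. Ranges in parentheses after a level, share or ratio are 95% intervals for counting error alone.

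The Bc1 transcript lies on chromosome 7 of mm10 at chr7:144914470-144914637, plus strand, as a single exon of 168 bases annotated as a long intergenic RNA (GENCODE). No other annotated gene overlaps it. Its neighbours are Gm39119, a non-coding antisense gene that ends 4385 bases before it, and the protein-coding gene LTO1, which starts 463 bases after it on the same strand. LTO1 was counted in rods at 27.3 counts per 1000000 UMIs (CPM) under short-wavelength and 24.6 CPM under white light, and Gm39119 at 0.0528 and 0.177 CPM. The transcript is shown first whole, because its base composition bears on how it is captured, with the A-rich stretch in capitals.
Bc1: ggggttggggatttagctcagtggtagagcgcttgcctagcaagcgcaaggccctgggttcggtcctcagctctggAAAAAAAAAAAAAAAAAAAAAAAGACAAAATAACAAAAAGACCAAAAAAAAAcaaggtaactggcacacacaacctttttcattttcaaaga
That stretch runs from base 77 to base 128, is 86.5% A and opens with 23 A in a row. The library chemistry captures RNA with a poly(dT) primer, and where in Bc1 the reads began was not analysed here.

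The 5′ part, shown next, carries the tRNA-like sequence, and the capitals mark matches to the letters of the A box and B box, the internal promoter elements of tRNA-type genes.
Bc1 bases 1 to 76: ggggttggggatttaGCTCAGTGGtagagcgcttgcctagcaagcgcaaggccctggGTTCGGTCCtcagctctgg
GCNNAGTGG matched at bases 16 to 24 and GTTCGNNNC at bases 58 to 66, both on the plus strand, in a search of both strands, and they do not overlap. Of 135207 annotated mouse transcripts at least as long as Bc1, 3.01% hold the first and 3.05% the second in their first 168 bases.

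In the 3′ part the capitals mark runs of at least 4 T, the kind of signal at which RNA polymerase III stops.
Bc1 bases 129 to 168: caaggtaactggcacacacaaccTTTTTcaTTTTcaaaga
The first run spans bases 152 to 156. RefSeq (GRCm38.p6) ends the gene at base 154, inside that run, whereas the GENCODE model goes on for 14 more bases. Words of 25 bases were compared with all other annotated transcripts on both strands. All 52 words of the 5′ part occur in at least 1 other gene (at most 16, median 8.5), and none of the 16 words of the 3′ part does. Of the 76 words that touch the A-rich stretch 45 occur in no other gene, while a single word occurs in up to 257 genes. How reads from these shared stretches were assigned is not given in the sources used here, so the Bc1 counts are uncertain to that extent.

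In both libraries Bc1 stood higher in rod bipolar cells than in rods, cones, Müller glia and microglia. Rod bipolar cells, which carry rod signals to the inner retina, had 242 CPM (207 to 280; 177 UMIs in 110 cells) under short-wavelength light and 76.3 CPM (48.4 to 114; 23 UMIs in 36 cells) under white light. Rods had 49.0 CPM (46.8 to 51.3; 1856 UMIs in 13267 cells) and 25.6 CPM (23.3 to 28.2; 434 UMIs in 5004 cells). The rod bipolar level was thus 4.94 times the rod level (4.21 to 5.76) in the first library and 2.98 times (1.87 to 4.52) in the second. Because rods were so many, they nevertheless held 82.2% and 81.6% of all Bc1 UMIs of kept cells. Cells were gated by marker UMIs, and the names that follow rest on those markers. In both libraries 5 of 5 markers not used for gating were over 5-fold above rods in the rod bipolar gate, 5 of 5 in the cone gate and 6 of 6 in the Müller glia and in the microglia gate.

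**Figure D1:**
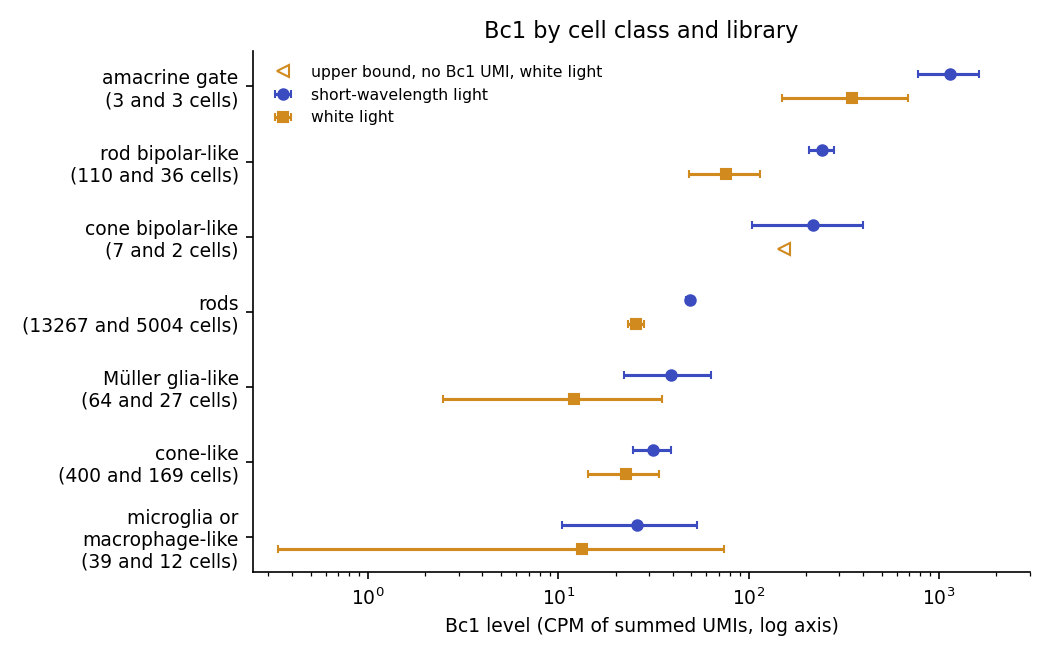
Bc1 level (CPM of summed UMIs, log axis) in each gated class, with circles for short-wavelength and squares for white light, bars for exact 95% Poisson intervals and an open triangle for the upper bound where no Bc1 UMI was found. Rod bipolar-like cells lie at 242 and 76.3 CPM and rods at 49.0 and 25.6 CPM, and in each class with Bc1 UMIs in both libraries the circle lies to the right of the square.

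Cones, the photoreceptors of daylight vision, had 31.4 CPM (24.9 to 39.1; 79 UMIs in 400 cells) under short-wavelength and 22.6 CPM (14.3 to 33.9; 23 UMIs in 169 cells) under white light. Cones were below rods at 0.641 times the rod level (0.505 to 0.803) in the short-wavelength library, and at 0.881 times (0.553 to 1.34) in the white-light library their interval included equality. Müller glia, the radial support cells of the retina, had 39.0 CPM (22.3 to 63.3; 16 UMIs in 64 cells) and 12.1 CPM (2.49 to 35.2; 3 UMIs in 27 cells). Microglia or macrophages, immune cells that are not known for BC1, had 26.0 CPM (10.4 to 53.5; 7 UMIs in 39 cells, of which 5 UMIs in 1 cell) and 13.4 CPM (0.339 to 74.6; 1 UMI in 12 cells). Over these 5 classes the order under short-wavelength light was rod bipolar, rod, Müller glia, cone, microglia, and under white light rod bipolar, rod, cone, microglia, Müller glia. Rod bipolar cells and rods, the first neighbours in both orders, had intervals that did not overlap, and all later neighbours had intervals that did.

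Few cells passed the gates of other inner retinal neurons. The cone bipolar gate held 7 short-wavelength cells with 10 Bc1 UMIs (218 CPM, 104 to 400) and 2 white-light cells with none, which allows up to 154 CPM (exact upper bound). The amacrine gate held 3 cells in each library, with 0, 15 and 16 Bc1 UMIs under short-wavelength and 2, 6 and 0 under white light, or 1142 CPM (776 to 1621) and 349 CPM (151 to 688). These 6 cells passed on Slc6a9, the glycine transporter of glycinergic neurons, and Slc32a1, the vesicular transporter of inhibitory transmitters. Of the other markers, 5 of the 6 cells had Pax6 and 2 had Meis2, while Gad1, Gad2, Tfap2a and Tfap2b were at 0 in all 6, so the name rests on few markers. The level varied within the gate from 0 to 16 UMIs among cells that each held over 1000 UMIs. The horizontal gate held 1 white-light cell with 1 Bc1 UMI, and 4 short-wavelength erythrocytes held none, which allows up to 104 CPM.

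The share of cells with a Bc1 UMI gave the same order of rods and rod bipolar cells. It was 55.5% of rod bipolar cells (45.7% to 64.9%) and 11.8% of rods (11.3% to 12.4%) under short-wavelength light, at median depths of 6117 and 2323 UMIs. In the white-light library it was 33.3% (18.6% to 51.0%) and 7.79% (7.07% to 8.57%), at 8486 and 2726 UMIs. With each cell thinned to 1000 UMIs, which left out 5 and 235 rods, the shares were 17.3% (10.7% to 25.7%) of rod bipolar cells and 5.16% (4.79% to 5.55%) of rods under short-wavelength light. Under white light thinning left 1 positive rod bipolar cell of 36, so no order is read there, and 2.77% (2.32% to 3.27%) of rods. As a class that should lack the gene, microglia had a Bc1 UMI in 7.69% of 39 cells (1.62% to 20.9%; median 7581 UMIs) and 8.33% of 12 cells (0.211% to 38.5%), and in 0 of 35 and 0 of 12 after thinning, which allows up to 10.0% and 26.5%. The rod share and the rod level are therefore not told apart from background RNA by this comparison. The rod level was 1.89 times (0.914 to 4.70) and 1.92 times (0.342 to 75.8) that of microglia. Rod bipolar cells had 9.31 times (4.43 to 23.5) and 5.70 times (0.925 to 235) the microglia level.

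Bc1 in rods was set beside RNAs that mark rod bipolar cells. Such markers are chosen for being near absent from rods, so their low rod level is no finding, and they serve only as a scale. The rod level of Bc1 was 20.3% (17.4% to 23.8%) of the rod bipolar level in the short-wavelength and 33.6% (22.1% to 53.6%) in the white-light library. Pcp2, a regulator of G-protein signalling abundant in rod bipolar cells, stood in rods at 0.194% (0.174% to 0.215%) and 0.259% (0.224% to 0.299%) of its rod bipolar level. Trpm1, the cation channel of ON bipolar cells, stood at 0.197% and 0.233%, Gng13, a G-protein gamma subunit, at 0.304% and 0.397%, and Isl1, a transcription factor, at 0.269% and 0.276%. Meg3, a neuronal nuclear long non-coding RNA, stood at 0.554% and 0.471%. An RNA that does not mark rod bipolar cells could stand as high in rods, relative to rod bipolar cells, as Bc1. Snap25, a synaptic vesicle fusion gene of all neurons, was at 748 and 739 CPM in rods against 2247 and 2397 CPM in rod bipolar cells. The long non-coding RNA Snhg11 in short-wavelength rods stood at 11.4% (5.57% to 26.2%) of a rod bipolar level from 9 UMIs. That interval includes the 20.3% of Bc1, so no order is read between them. White-light rod bipolar cells had 0 Snhg11 UMIs, so no percentage is given there. Pcp2 was also a gating marker of rod bipolar cells, so a contrast with rods in Bc1 per Pcp2 UMI is built in by the gate. Per Pcp2 UMI, rods held 4.87 Bc1 UMIs (4.36 to 5.45) and 2.00 (1.70 to 2.37). Rod bipolar cells, which make Pcp2 themselves, held 0.0466 (0.0398 to 0.0541) and 0.0154 (0.00975 to 0.0233). Cones held 7.90 (4.08 to 17.1) and 4.60 (1.71 to 15.5) and Müller glia 16.0 (2.49 to 671) and 0.429 (0.0715 to 1.88), with intervals that overlapped those of rods. In microglia Bc1 stood at 10.7% (4.26% to 22.6%) and 17.6% (0.426% to 108%) of its rod bipolar level with Pcp2 at 0 UMIs.

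**Figure D2:**
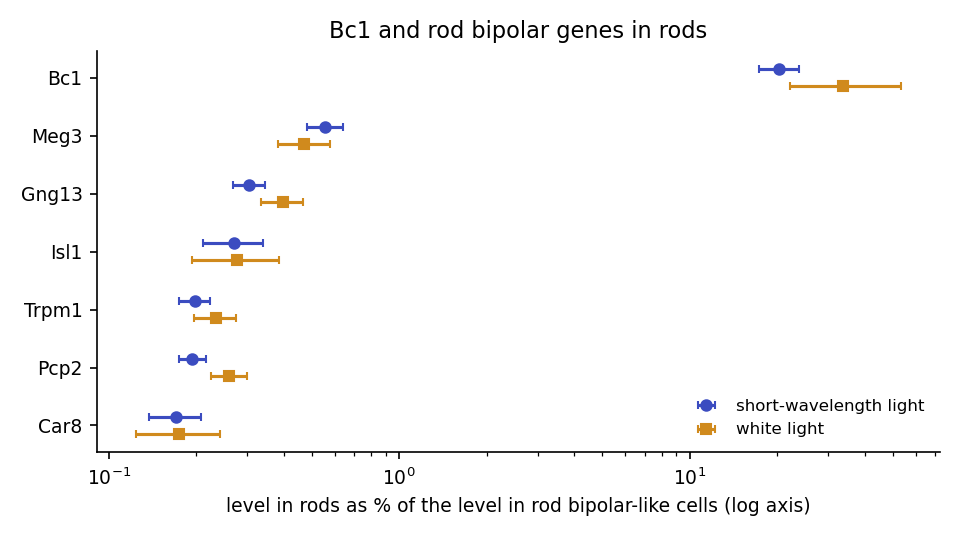
Level in rods as a percentage of the level in rod bipolar-like cells (log axis) for Bc1 and 6 genes chosen as marks of rod bipolar cells or inner neurons, with circles for short-wavelength light, squares for white light and exact 95% intervals. Bc1 lies at 20.3% and 33.6%, and the 6 other genes lie between 0.170% and 0.554%.

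Among single rods Bc1 was mostly found as 1 UMI. Under short-wavelength light 11701 rods had none, 1364 had 1, 163 had 2, 30 had 3, 3 had 4 and 6 had more, with 64 UMIs in those 6. The highest was 21 UMIs in a rod with 16.8% mitochondrial UMIs. Under white light 4614 rods had none, 355 had 1, 27 had 2, 7 had 3 and 1 had 4. Rods with at least 2 UMIs numbered 202 and 35. Poisson counts with a mean proportional to the UMIs of each rod, at the same total, would give 150 and 24.7. Bc1 went up less than in proportion to depth, as given below, so that reference is rough. The variance was 1.60 times the mean under short-wavelength light, 1.17 times without the 6 rods, and 1.16 times under white light. Rod bipolar cells held more Bc1 UMIs each, with means of 1.61 and 0.639 against 0.140 and 0.0867 in rods. Of the 110 short-wavelength cells 49 had none, 19 had 1 and 11 had more than 4, up to 9, and of the 36 white-light cells 24 had none and the highest had 5, so that the variance was 2.75 and 1.98 times the mean. That ratio goes up with the mean, so no order of unevenness is read between the classes.

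Bc1 per cell went up much less than most RNAs from shallow to deep rods. Rods were divided into 5 equal parts by UMIs per cell over both libraries. In the shallowest part rods held 11.9 Bc1 UMIs per 100 cells in the short-wavelength library and 6.92 in the other, and in the deepest part 19.8 and 11.96. These are ratios of 1.67 (1.45 to 1.92) and 1.73 (1.26 to 2.41), while the ratios were 3.73 and 4.81 for the UMIs of all genes and 3.76 and 5.08 for the median gene. The Bc1 level went accordingly from 75.8 CPM in the shallowest part through 54.9, 58.3 and 47.0 to 33.9 CPM in the deepest of short-wavelength rods. In white-light rods it went from 53.6 CPM through 27.2, 28.6 and 30.0 to 19.2 CPM. Both series were lower in the last part than in the first, with intervals that did not overlap, while those of parts 2 and 3 overlapped in each library.

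**Figure D3:**
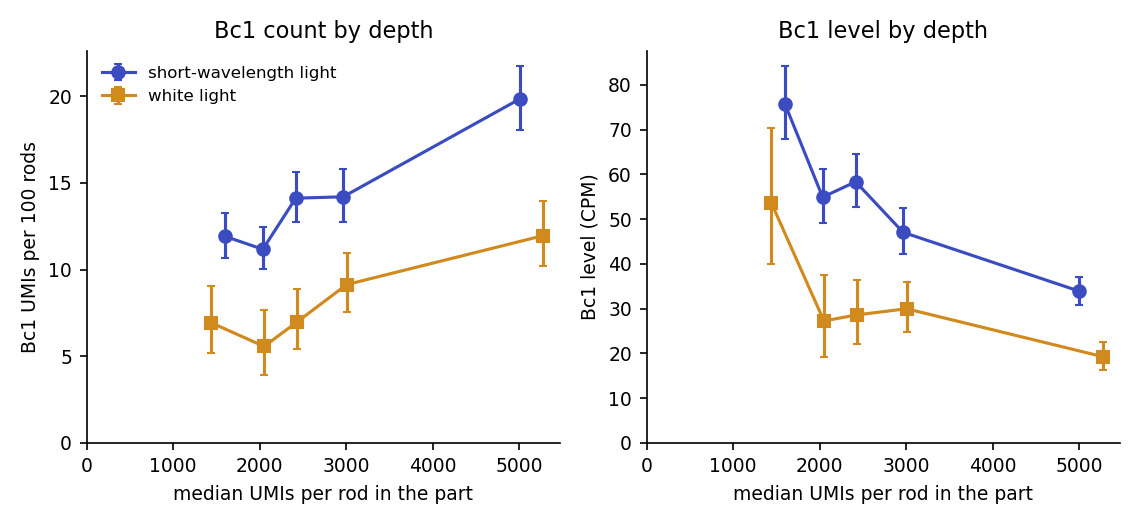
Bc1 UMIs per 100 rods (left) and Bc1 level in CPM (right) against the median UMIs per rod in 5 parts of rods cut by depth, with circles for short-wavelength light, squares for white light and exact 95% Poisson intervals. The count rises from 11.9 to 19.8 and from 6.92 to 11.96 per 100 rods while the level falls from 75.8 to 33.9 and from 53.6 to 19.2 CPM.

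Few genes scaled as little with depth. Of 9973 genes with at least 200 UMIs in short-wavelength rods, 19 (0.191%) had a smaller ratio of deep to shallow rods than Bc1. Those were all 13 mitochondrially encoded genes, all 3 haemoglobin genes measured, the cone channel subunit Cngb3, the synaptic adhesion gene Lrrtm4 and Sphkap. Of 8558 genes in white-light rods 31 (0.362%) had a smaller ratio, among them 3 of 13 mitochondrial genes, 2 of 2 haemoglobin genes and 9 gating or check markers of other classes, such as Pcp2, the cone opsins Opn1sw and Opn1mw, and Apoe and Rlbp1 of Müller glia. Haemoglobin Hbb-bs, which rods do not make, had ratios of 1.62 (1.35 to 1.96) and 1.02 (0.847 to 1.23), and the rod genes Gnat1 2.82 and 3.47 and Nrl 3.01 and 3.66. The part of background RNA in the Bc1 counts of rods was not tested. Between the libraries, RNAs of other classes in rods went in differing directions. Hbb-bs was at 32.0 CPM under short-wavelength and 62.5 CPM under white light, Pcp2 at 10.1 and 12.8, and the cone arrestin Arr3 at 59.7 and 49.6.

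Bc1 was higher in rods with a larger mitochondrial share of UMIs. Over 5 equal parts of rods by that share it went from 33.2 CPM through 40.7, 49.6 and 63.4 to 70.0 CPM under short-wavelength light and from 20.4 through 16.3, 22.3 and 30.4 to 36.6 CPM under white light. The lowest and highest parts had intervals that did not overlap in either library. Along the same parts the share of cytosolic ribosomal protein RNA went from 1.34% to 4.44% and from 1.34% to 4.46%, and that of the nuclear RNA Malat1 from 6.17% to 3.91% and from 5.67% to 3.57%, and their part in the Bc1 difference was not tested. Within every one of the 5 depth parts, in both libraries, rods at or above the median mitochondrial share of 0.378% had more Bc1 than rods below it, for example 94.0 against 52.8 CPM in the shallowest and 42.6 against 30.1 CPM in the deepest short-wavelength rods. In white-light rods the corresponding values were 59.1 against 31.4 and 22.8 against 15.9 CPM. The intervals of the compared rods overlapped in 1 of 5 depth parts in the short-wavelength and in 4 of 5 in the white-light library. By Malat1 share Bc1 went from 61.9 CPM in the lowest part to 43.0 in the highest for short-wavelength rods and from 32.2 to 22.4 CPM for white-light rods, where part 4 was lowest at 15.6 CPM.

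**Figure D4:**
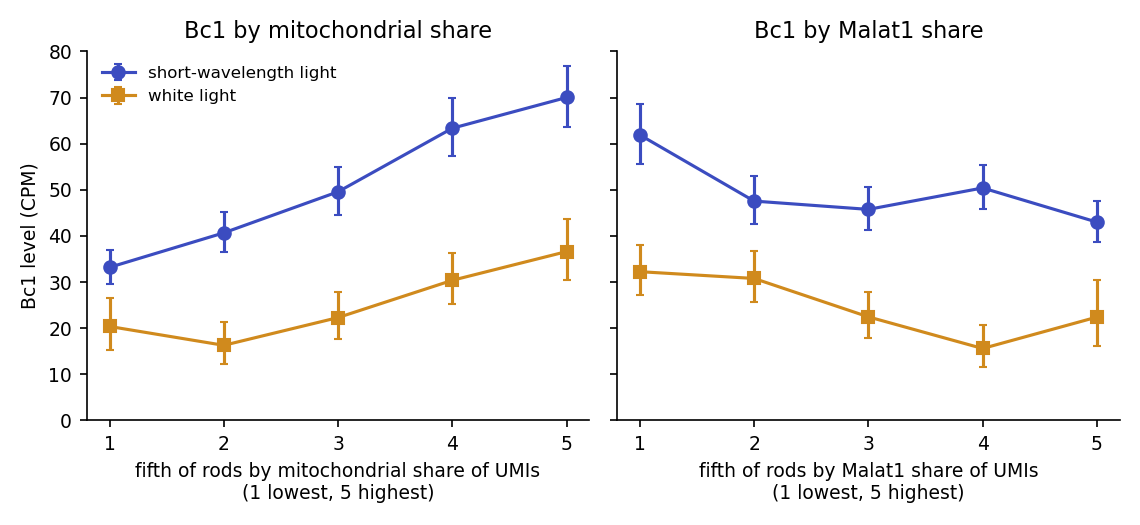
Bc1 level in rods (CPM) in 5 parts of rods cut by the mitochondrial share of UMIs (left) and by the Malat1 share (right), with circles for short-wavelength light, squares for white light and exact 95% Poisson intervals. The level goes from 33.2 to 70.0 and from 20.4 to 36.6 CPM with mitochondrial share and from 61.9 to 43.0 and from 32.2 to 22.4 CPM with Malat1 share.

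Over the genes with enough UMIs to compare, rods with a Bc1 UMI were close to matched rods without one. Of the 1566 short-wavelength and 390 white-light positive rods, 1364 and 355 held a single Bc1 UMI. A rod without a UMI may still hold Bc1, so this closeness says little of rods that lack it. In each library every Bc1-positive rod was matched to 3 negative rods of similar depth and Malat1 share, 1566 with 4698 and 390 with 1170. Genes with under 100 UMIs in the positive rods of either library, such as Nefl below, did not enter. Of the 3317 genes that did, 0 (0.0%) were at least 25% higher in both libraries and 0 (0.0%) were lower by the same factor. With no test possible, no p-value stands behind these counts. In the same direction in both libraries were 861 genes on the higher and 891 on the lower side. With positive rods limited to the 237 that had at least 2 Bc1 UMIs, only 216 genes could be compared, and 3 were higher in both libraries, all of them mitochondrial (mt-Nd1, mt-Co2 and mt-Co3).

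Small differences ran through some of the gene lists. Of the 81 measured genes for cytosolic ribosomal proteins, 68 were higher in positive rods under short-wavelength light (median log2 ratio 0.06) and 65 under white light (0.08), against 5284 of 10475 and 4277 of 8232 among all genes with medians of 0.00 and 0.01. Their summed share of UMIs was 2.12% in positive against 2.04% in negative rods (1.04 times, 1.04 to 1.05) and 2.53% against 2.39% (1.06 times, 1.05 to 1.07). Mitochondrially encoded genes were higher in 12 of 13 and 8 of 13 cases, with summed shares of 0.802% against 0.725% (1.11 times) and 0.969% against 0.918% (1.06 times). When the negatives were also matched on mitochondrial share, the ribosomal ratio was 1.02 and 1.06. Genes for proteins that bind BC1 or act with it in translation control were higher in 13 of 16 and 8 of 16 cases, with Pura, which binds BC1 in dendrites, at 1.06 times (1.01 to 1.12) and 1.07 times (0.968 to 1.19). Members of the RNA polymerase III machinery were higher in 13 of 31 and 17 of 28 cases. Bdp1, a subunit of the initiation factor TFIIIB, was at 0.953 times (0.877 to 1.03) and 0.851 times (0.716 to 1.01). Of immediate-early genes 5 of 12 and 6 of 8 were higher, with Jun at 1.16 and 1.18 times and Fos at 0.884 and 0.991 times. The counts were 9 of 13 and 6 of 13 for chaperones, 5 of 10 and 3 of 7 for dendritic and synaptic mRNAs, and 6 of 11 and 6 of 8 for other long non-coding RNAs.

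Markers of other retinal classes were summed in the same rods. The 11 ganglion cell markers were at 14.8 CPM in positive and 5.30 CPM in negative rods under short-wavelength light, 2.79 times (2.01 to 3.87), with 9 of 11 higher. Under white light they were at 14.1 and 7.20 CPM, 1.96 times (1.08 to 3.51), with 7 of 11 higher. Nefl, the light neurofilament chain, gave 42 of the 75 UMIs in positive short-wavelength rods and 12 of the 21 in positive white-light rods, and is picked out here after its values were seen. Against 43 and 13 UMIs in the more numerous negative rods, these came to 8.28 against 2.85 CPM (2.90 times, 1.85 to 4.55) and 8.08 against 2.93 CPM (2.76 times, 1.15 to 6.57). Every other ganglion marker had at most 2 UMIs in positive white-light rods, with an interval that did not exclude equality. The white-light count of 7 of 11 thus rests on few UMIs, and no rise over the whole list is read from it. Pou4f2, a defining transcription factor of ganglion cells, had 1 UMI in all those short-wavelength rods and none under white light. The 10 cone bipolar markers were 1.65 times (1.35 to 2.01) and 1.19 times (0.872 to 1.62) the level of negative rods, and 1.31 times (1.06 to 1.61) without the 6 short-wavelength rods with over 4 Bc1 UMIs. Sums for rod bipolar cells (1.01 and 1.06 times), Müller glia (1.07 and 0.957) and microglia (0.985 and 1.22) had intervals that included equality. Cone markers were at 0.992 times (0.940 to 1.05) and 1.17 times (1.07 to 1.28), and amacrine markers at 1.04 times (0.985 to 1.09) and 0.870 times (0.787 to 0.960), so the libraries differed. The amacrine sum is mostly Meis2, which over all rods was at 331 and 343 CPM, beside sums of 385 and 402 CPM in negative rods. Of the 11 amacrine markers 5 were higher under short-wavelength light. Under white light 1 was higher and 2 had no UMI in either group. The part of the markers of these classes in the difference between positive and negative rods was not tested.

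Between the light conditions Bc1 was higher in the short-wavelength library in every class with Bc1 UMIs in both. In rods the ratio was 1.91 (1.72 to 2.13). Only 4 of 7367 genes measured in rods, 0.0543%, were at least 1.5-fold higher, and Bc1 was second among all of them after Fgfbp3, a carrier protein of fibroblast growth factors, at 2.01 (1.76 to 2.30). Since Bc1 was chosen by this contrast, nothing is read from its rank. In cones the ratio was 1.39 (0.864 to 2.32), which includes equality, and 322 of 7254 genes (4.44%) were at least 1.5-fold higher there, where Bc1 ranked 560. In rod bipolar cells it was 3.17 (2.05 to 5.13) with 203 of 3076 genes (6.6%) past that fold and Bc1 at rank 22. A gene entered these counts when either library reached the minimum of 50 UMIs. In cones and in rod bipolar cells Bc1 had 23 white-light UMIs and entered only through the short-wavelength library. Nothing is read from its rank in these classes either. The amacrine gate gave 3.27 (1.47 to 8.24), Müller glia 3.23 (0.925 to 17.3) and microglia 1.94 (0.249 to 87.4).

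Between parts cut by depth the light ratio spread more in rod bipolar cells than in rods, but on 1 white-light UMI in the shallower rod bipolar cells. Rods of the short-wavelength library were shallower (median 2323 against 2726 UMIs), with more Malat1 (5.74% against 5.15%) and less mitochondrial RNA (0.345% against 0.492%). Within 20 parts of rods, cut by depth, Malat1 share, mitochondrial share or rod marker share, the light ratio was above 1 in all and ranged from 1.41 (1.05 to 1.93, shallowest rods) to 3.24 (2.40 to 4.44, part 4 by Malat1 share). With rods weighted to one distribution of depth and Malat1 share it was 1.82. Rods without a single UMI of any gating marker of another class gave 3.67 (1.94 to 7.82), on 150 and 10 Bc1 UMIs. Rod bipolar cells of the short-wavelength library were also shallower, and 65 of its 110 cells but 8 of 36 white-light cells lay below the joint median of 6878 UMIs. The deeper cells had 137 CPM (104 to 178) and 85.3 CPM (53.5 to 129), a ratio of 1.61 (0.967 to 2.77) that includes equality. The shallower cells had 373 CPM (310 to 446) and 22.9 CPM (0.579 to 127), the latter from 1 UMI, a ratio of 16.3 (2.88 to 650). The higher pooled ratio in rod bipolar cells than in rods was not tested as a difference. Its split by depth was chosen after the data were seen, and with 1 white-light UMI in the shallower cells no effect of depth is read.

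**Figure D5:**
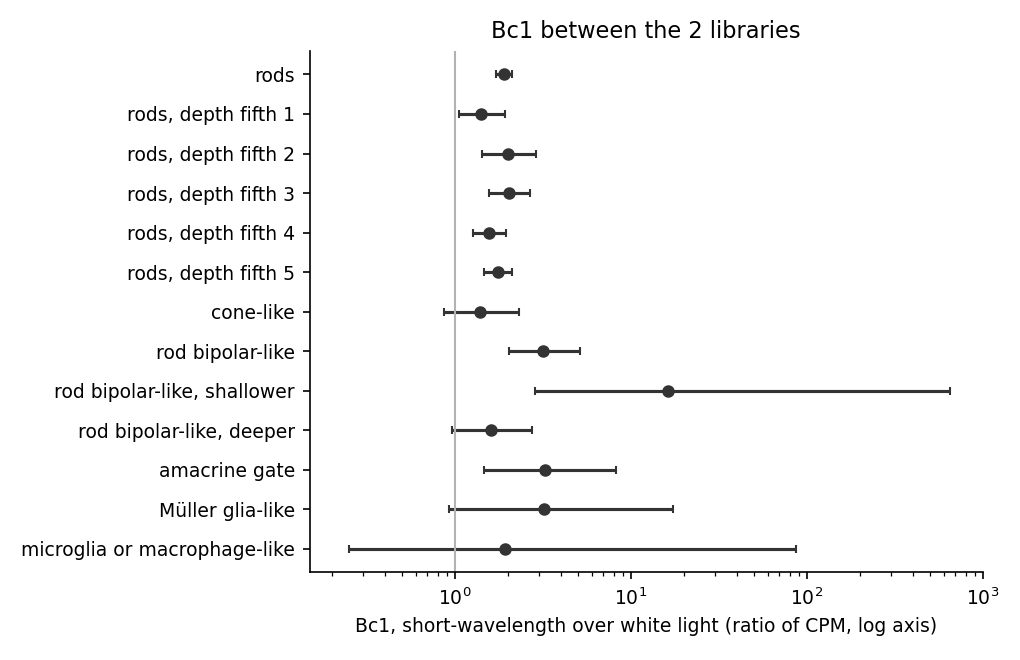
Ratio of the Bc1 level (CPM) under short-wavelength to that under white light (log axis) by class, for rods in 5 parts from shallowest (1) to deepest (5), and for rod bipolar-like cells below and above their joint median depth, with exact 95% intervals and a line at equality. Rods lie between 1.41 and 2.04 in their depth parts, and rod bipolar-like cells at 16.3 in the shallower and 1.61 in the deeper cells.

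Other short transcripts in rods did not share one direction between the libraries. Among 24 genes of at most 300 bases with at least 200 UMIs in rods, 11 were higher under short-wavelength light and the median log2 ratio was -0.02, against 0.01 over 10526 genes. Snhg9, a small nucleolar RNA host gene of 183 bases, was at 1.46 times (1.35 to 1.59), and mt-Atp8, a mitochondrial gene of 204 bases, at 0.929 times (0.846 to 1.02). Rmrp, the RNA of the RNase MRP complex and another RNA polymerase III product in the matrices, had 58 UMIs (1.53 CPM, 1.16 to 1.98) and 17 UMIs (1.004 CPM, 0.585 to 1.61) in rods, with overlapping intervals.

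Genes for BC1 partners and for RNA polymerase III were about as often higher as lower in rods between the libraries. Of 16 measured partner proteins 7 were higher under short-wavelength light (median log2 ratio -0.01), among them Hnrnpa2b1, an RNA transport protein, at 1.06 times and Pura at 1.05 times, with Ybx1 at 0.934 and Purb at 0.984. Of the 31 RNA polymerase III genes 16 were higher (median 0.03), with Bdp1 at 1.10 times (1.05 to 1.16) and Ssb, the La protein that binds the ends of these transcripts, at 0.914 times (0.882 to 0.948). Of 13 other long non-coding RNAs 5 were higher, including Malat1 at 1.11 times. Dendritic and synaptic mRNAs had 8 of 14 higher, with Map1b at 1.002 and the postsynaptic scaffold gene Dlg4 at 1.09 times. Over all 12867 genes 6807 were higher (median 0.01). The counts were lower for immediate-early genes (3 of 15, median -0.20, Fos at 0.491 times), chaperones (0 of 13, -0.20, Hspa8 at 0.716 times), cytosolic ribosomal proteins (1 of 81, -0.16) and mitochondrially encoded genes (0 of 13, -0.24).

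The genes whose profile was most like that of Bc1 were taken by Pearson r of log2 levels over 8 profiles, namely rods, cones, rod bipolar cells and Müller glia in each library, among 9992 genes. These profiles share libraries and depth, so r is a description. The first were Strn4 (r = 0.953), a scaffold of the striatin family, Adck2 (0.951), Gtdc1 (0.943), Zfp667 (0.942) and Bcl2l15 (0.942), followed by Mblac2, Arhgap33, Pcdhga12, Pogk and Purg (0.924), a relative of Pura and Purb. On that scale, log2(CPM + 5), each of the 10 spanned a smaller range than Bc1. Strn4 was at 60.1 and 53.1 CPM in rod bipolar cells and 39.2 and 36.0 CPM in rods, and Purg at 213 and 202 CPM in rod bipolar cells and 111 and 102 CPM in rods. Only 5 of the 10 came up again with a minimum of 50 in place of 200 UMIs. Snap25 had r = 0.63, and Meg3 r = 0.43.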

How the data were processed

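Single cells of mouse retina were measured in 1 library per light condition (10x Genomics 3′ chemistry, per the labels' protocols). The authors deposited unnormalized UMI counts for each gene in each barcode. Per the file headers these come from Cell Ranger 9.0.0, and the submitters' processing notes name mm10, Seurat and edgeR.

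Barcodes needed 300 genes and no more than 20% mitochondrial UMIs. Scrublet (scanpy 1.11.5) marked 1 barcode in each library, and the top scores, 0.8% for every 1000 barcodes in a library, were taken out instead (2072 and 259 barcodes). Classes needed 12 UMIs from 3 gating markers (2 markers for cone bipolar, amacrine, horizontal and ganglion cells), and rods 12 rod-marker UMIs that made up at least 0.7% of their UMIs. Droplets passing several gates, or a gate other than cone at that rod share, were set aside as mixed. The rod share limit and a shorter vascular gate were chosen after the data were seen. Class names thus rest on markers alone.

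For each class, summed UMIs were scaled to CPM. Intervals are exact (Poisson, Clopper-Pearson, or conditional binomial for ratios), and log2 ratios add 5 CPM. Genes with at least 50 UMIs and 20 CPM in at least 1 of the libraries entered the 1.5-fold counts. Positive rods were compared over genes with at least 100 UMIs. Named genes were the 10 most like Bc1, up to 10 per direction past 1.25-fold, and up to 4 of each list with the most UMIs, without predicted genes. Members and lists were chosen with earlier results of these data known. Sequences come from GENCODE and gene bounds also from RefSeq. TMM (edgeR 4.0.16) and DESeq2 1.42.0 size factors were among the alternatives.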

Additional observations from a re-analysis of the deposited data

How the results depend on the processing

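Of 83 recomputed values 68 stayed within the interval of the value reported (for counts, within 1.5 times). Some of those carry no information. A stricter gate on marker UMIs left the rod values identical. A higher fold limit could not change the counts of genes higher and lower in positive rods, which already held no gene. Leaving out the rods with the most Bc1 could not change white-light values, because all those rods were in the short-wavelength library. No paired analysis was possible because each condition has 1 library. With cells thinned to 1000 UMIs the share of rods with Bc1 was 5.16% and 2.77%, the rod bipolar light ratio was 8.84 (1 white-light UMI), and the white-light ratio of rod bipolar cells to rods turned to 0.967 (0.0243 to 5.48) on that UMI. With doublets kept the short-wavelength rod share was 12.4%. Rods with no gating marker of another class gave a light ratio of 3.67, a short-wavelength ratio of rod bipolar cells to rods of 3.34 and a white-light rod share of 3.04%. Chosen after the data were seen, the deeper rod bipolar cells gave a light ratio of 1.61 and 2.80 times the rod level under short-wavelength light, and the shallower ones a light ratio of 16.3. At a minimum of 50 UMIs 3 genes were higher and 2 lower in positive rods, and with at least 2 Bc1 UMIs 3 were higher. At that lower minimum 5 of the 10 most similar genes were shared. The cause was not tested. The 13 other alternatives kept the light ratio of rods between 1.78 and 1.97, and the 11 others that of rod bipolar cells between 3.12 and 3.83. The number of cells, at most 39 per library, limits what can be said of cone bipolar, amacrine and microglial cells, and depth limits single rods, which mostly held 0 or 1 Bc1 UMI.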

Other observations

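Droplets that passed no gate, 89 under short-wavelength and 80 under white light, had 167 CPM of Bc1 (127 to 215) and 91.5 CPM (50.02 to 154), which was 3.41 times (2.59 to 4.403) and 3.57 times (1.94 to 6.05) the rod level. The 6 genes with the highest fold over rods were Cdh9, a cadherin, Il1rapl2, Hs3st4, a sulfotransferase, Cntn5, a contactin, Kcnb2, a potassium channel, and Ptprz1, a phosphatase. Zfp804b had the highest level of the leading genes, with 7573 CPM against 24.5 CPM in rods. They had no class name, and their median depth was 2819 and 742 UMIs. Droplets that passed more than 1 gate or were mixed with rod RNA numbered 39 and 101 and had 63.2 CPM (38.6 to 97.5) and 46.8 CPM (30.3 to 69.1).

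The rods with the most Bc1 were all in the short-wavelength library and did not share one appearance. They held 21, 16, 9, 7 and 6 UMIs in the first 5 cases, with mitochondrial shares of 16.8%, 1.30%, 9.58%, 1.10% and 0.0759%. No white-light rod held more than 4.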
